A study of Mus musculus with 4 samples.

Results

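The genes described are 10 that make, load and display peptides for MHC class I: Tap1, Tap2, Tapbp, Psmb8, Psmb9, Psmb10, Psme1, B2m, H2-K1 and H2-D1. They were taken by name, as every array probe whose gene name or RefSeq-matched symbol was 1 of these. Probes were found for 9 of the 10 genes, 16 probes of the 41174 that were not controls. H2-D1 matched no probe, so it has no value here.

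MHC class I molecules carry short peptides from proteins made inside a cell to its surface, where CD8 T cells read them. The proteasome cuts the peptides, a transporter built from Tap1 and Tap2 moves them into the endoplasmic reticulum, and tapasin (Tapbp) holds empty class I molecules beside that transporter. Type I and type II interferons are known inducers of these genes, including the catalytic subunits that turn the standard proteasome into the immunoproteasome. Hepatic stellate cells, which store retinoids in healthy liver and lay down matrix when activated, have been described as able to present antigen.

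RNA came from IMS/N, a line of hepatic stellate cells isolated from normal 129/Sv mice and immortalized with SV40 virus. All 4 conditions used this line: PA (palmitic acid, a saturated fatty acid) together with ADSC medium, PA alone, ADSC medium alone, and neither (control). ADSC medium was medium from cultures of adipose tissue-derived stem cells, which were prepared from inguinal fat of male C57BL/6J mice aged 8 to 10 weeks. Each condition was measured on 1 one-colour array, so every difference sets 1 array against another, no test between conditions was possible, and no p-value is given. The sources used here do not state how much PA was given or for how long, what vehicle the cultures without PA had, or on which base medium the cultures without ADSC medium grew. Products of the ADSCs therefore cannot be told apart from the base medium they were grown in.

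Values are levels, meaning quantile-normalized log2 intensities, and a difference is a difference of 2 such log2 levels unless a fold is given. Levels of different probes are not compared, since probes differ in brightness for the same amount of RNA. All 4 arrays lay on 1 slide and were read in 1 scan, no spot was saturated, and between 67.6% and 70.0% of probes per array were well above background by the scanner software's flag. All 16 probes of the class I genes were well above background on all 4 arrays. The only measure of error is the spread of replicate spots: for 245 probes printed 10 times per array, any 2 spots of a probe on the same array differed with an SD of 0.080 at levels of 7 to 9, 0.067 at levels of 9 to 11 and 0.059 above that. This SD covers the measurement on the array and not the variation between cultures. In bulk RNA, fewer cells with a transcript and less transcript per cell cannot be told apart.

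The line carried the mesenchymal markers of stellate cells but not all of their markers. Vim had levels of 16.06 with PA and ADSC medium, 16.08 with PA, 16.05 with ADSC medium and 16.05 in control. Col1a1 had levels between 14.81 and 15.09, while Lrat and Reln, further stellate markers, were well above background on no array by any probe. Of the 2 probes of Hand2, another such marker, 1 was well above background on at least 1 array. Of 10 leukocyte markers 6 or 7 were well above background per array, but Ptprc, Adgre1 and Clec4f, which define leukocytes, macrophages and Kupffer cells, were so on none. The summed intensity of the leukocyte markers was 336 with PA and ADSC medium, 461 with PA, 402 with ADSC medium and 411 in control.

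The probes with the largest PA differences are shown so that the measured part of each transcript is known. The letters are those of the deposited probe annotation, 5′ to 3′, with positions on mm9. The Tap1 probe lies on the plus strand at chr17:34330854-34330913. The Psmb9 probe lies on the minus strand at chr17:34319174-34319233. The second of the Psmb8 probes lies on the plus strand at chr17:34337771-34337830. Each is open in 2 reading frames over its 60 bases.
Tap1 probe: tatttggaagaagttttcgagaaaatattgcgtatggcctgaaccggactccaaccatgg
Psmb9 probe: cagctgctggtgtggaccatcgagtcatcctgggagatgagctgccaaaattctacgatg
Psmb8 probe: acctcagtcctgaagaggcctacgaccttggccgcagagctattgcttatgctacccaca

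With PA alone, all 9 measured genes had higher levels than in control, while 48.5% of all 18207 gene names compared were higher. The median difference of the 9 genes was 0.67, a 1.59-fold higher level, against a median of -0.01 over all gene names. Of the 9, 7 were at least 1.5-fold higher (Tap1, Tap2, Tapbp, Psmb8, Psmb9, Psmb10 and H2-K1), where 2.92% of gene names were, and 2 were at least 2-fold higher (Tap1 and Psmb8), where 1.09% were. B2m and Psme1 were higher by less than 1.5-fold. The same 7 genes appear with 1 probe each in the authors' deposited table of probes higher with PA than in control. It holds 1580 of the 41174 probes, for 1575 gene names, and the sources used here do not state its threshold. The table describes these same 4 arrays, so it is not separate support.

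Tap1, 1 of the 2 chains of the peptide transporter, showed the largest difference of the 9 genes. Its levels were 8.11 with PA and ADSC medium, 9.02 with PA, 7.34 with ADSC medium and 7.40 in control. The PA array stood 1.62 above control, a 3.08-fold higher level and rank 87 from the top among 18207 gene names. With the normexp background correction, an alternative processing, this difference was 1.33. ADSC medium alone differed from control by -0.06, less than the SD of 0.080 of replicate spots at this level. Tap2, the other chain of the transporter, had levels of 9.18 with PA and ADSC medium, 9.68 with PA, 8.90 with ADSC medium and 9.02 in control. Its difference of 0.67 between PA and control was well under the 1.62 of Tap1.

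Tapbp encodes tapasin, the bridge between the transporter and class I molecules. Its brighter probe had levels of 14.71 with PA and ADSC medium, 14.72 with PA, 14.18 with ADSC medium and 14.11 in control. The arrays fell into a pair with PA and a pair without, and the pair with PA differed by only -0.01. Its second probe gave 9.23, 9.24, 8.75 and 8.72 in the same order of conditions. Both probes showed the same grouping, with PA differences of 0.62 and 0.52.

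The immunoproteasome subunits Psmb8, Psmb9 and Psmb10 replace the standard catalytic subunits and alter which peptides are cut. Psmb8 had levels of 12.32 with PA and ADSC medium, 12.58 with PA, 11.51 with ADSC medium and 11.52 in control. Its PA level was 2.09-fold higher than control, and its second probe gave 2.15-fold. Psmb9 had levels of 10.52 with PA and ADSC medium, 11.23 with PA, 10.25 with ADSC medium and 10.33 in control, a 1.87-fold higher level with PA than in control. Psmb10 had levels of 13.38 with PA and ADSC medium, 13.54 with PA, 12.90 with ADSC medium and 12.88 in control, a 1.58-fold higher level with PA. PA gave the highest level of all 3 subunits, and the 2 arrays without PA gave the lowest.

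Psme1 encodes a subunit of the ring-shaped activator that caps the proteasome. Its levels were 12.43 with PA and ADSC medium, 12.50 with PA, 12.13 with ADSC medium and 12.103 in control. Both arrays with PA were above both without, by a PA difference of 0.40 from control. Psme2, its partner in the same ring, was not among the 10 genes and showed a PA difference of 0.54.

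B2m encodes the light chain shared by class I molecules, and 3 probes measured it. The brightest had levels of 16.52 with PA and ADSC medium, 16.77 with PA, 16.22 with ADSC medium and 16.39 in control. The PA differences of its 3 probes ran from 0.37 to 0.51, so none reached 1.5-fold. Another probe was printed on 10 spots, whose log2 intensities before normalization between arrays were 15.57 ± 0.051 with PA and ADSC medium, 15.92 ± 0.069 with PA, 15.24 ± 0.044 with ADSC medium and 15.37 ± 0.053 in control (SD of 10 spots on 1 array). The spots of the PA array read 15.83 to 16.07 and those of the control array 15.30 to 15.50. The PA array as a whole was brighter before normalization, and the spots of an array repeat 1 culture. After normalization the PA difference of this probe was 0.40.

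H2-K1 encodes a classical class I heavy chain, and 4 probes measured it. The brightest, also on 10 spots, had levels of 16.00 with PA and ADSC medium, 16.32 with PA, 15.51 with ADSC medium and 15.60 in control, 1.64-fold higher with PA than in control. Its other 3 probes gave PA differences between 0.63 and 0.71. The 10 spots read 15.99 ± 0.032 with PA and ADSC medium, 16.42 ± 0.039 with PA, 15.44 ± 0.037 with ADSC medium and 15.54 ± 0.046 in control before normalization between arrays. The lowest spot of the PA array read 16.34, and the highest spot of the array with both read 16.04. These readings include the greater brightness of the PA array as a whole, and the spots of an array repeat 1 culture.

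**Figure D1:**
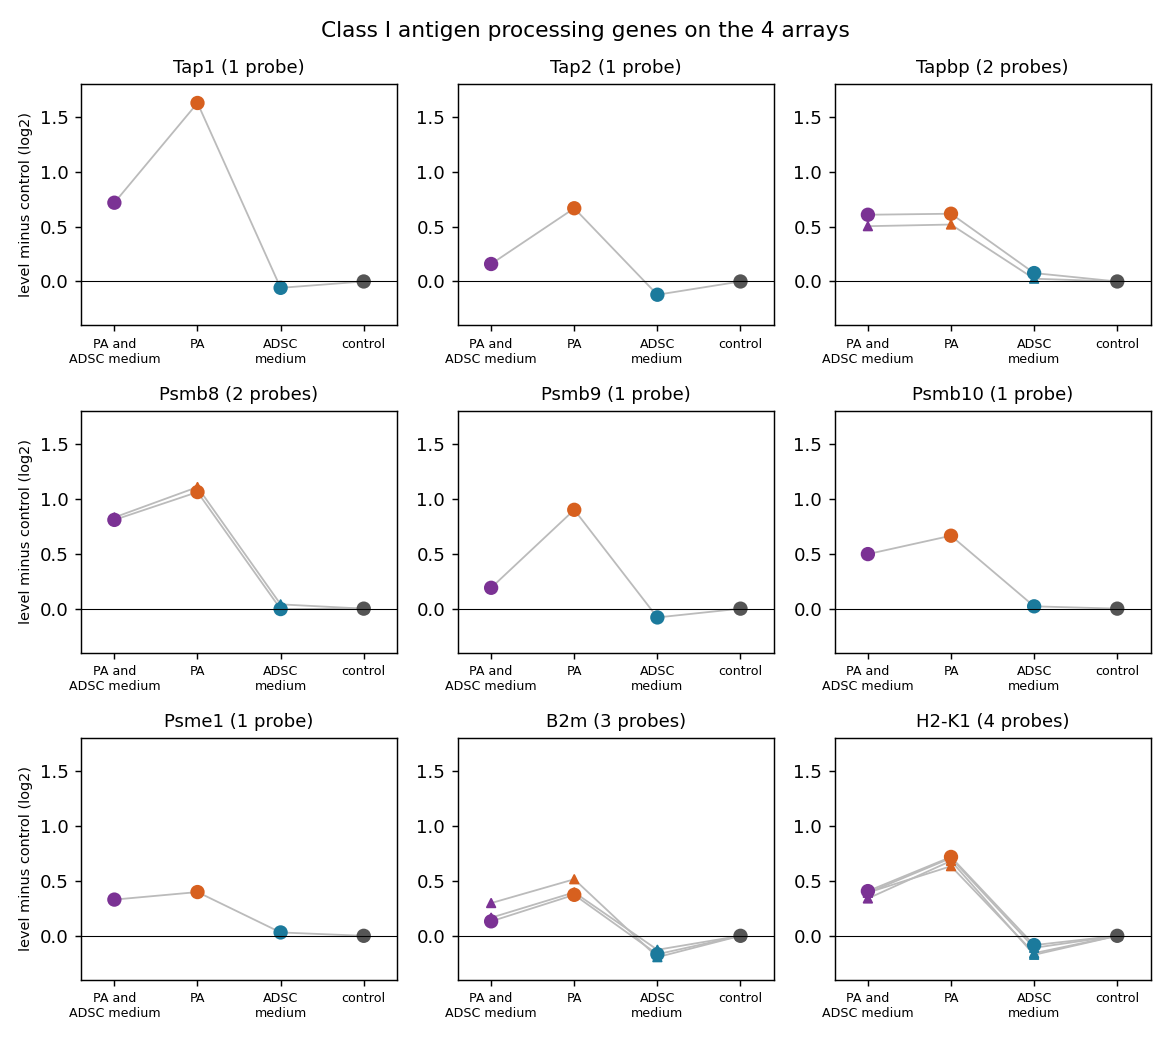
Level minus control level (log2) of the 9 measured genes on the 4 arrays, 1 panel per gene and 1 line per probe; circles mark the probe that stands for the gene and triangles its other probes. PA gives the highest point of each of the 16 probes, Tap1 reaches 1.62, and the ADSC medium points lie between -0.19 and 0.08.

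Class I heavy chain genes resemble one another in sequence, some of them closely, so a probe of one may bind RNA of another. The array carries 42 probes under 28 names of classical and non-classical class I heavy chains. Among them 4 pairs of probes for different genes share a run of 20 or more identical bases, and 1 of these pairs holds an H2-K1 probe. It is printed with its partner on H2-Q10, the shared run of 20 bases in capitals, from the deposited probe annotation on mm9. The H2-K1 probe lies at chr17:34136288-34136347 on the minus strand and the H2-Q10 probe at chr17:35607907-35607966 on the plus strand. Their PA differences were 0.68 and 0.59, and how far either signal comes from the other gene was not tested.
H2-K1 probe: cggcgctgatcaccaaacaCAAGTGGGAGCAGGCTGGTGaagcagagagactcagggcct
H2-Q10 probe: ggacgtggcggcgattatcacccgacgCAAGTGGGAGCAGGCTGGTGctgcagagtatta

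The brightest H2-K1 probe shared at most 8 bases in a row with a probe of another class I gene. It shared 25 with a further H2-K1 probe, so those 2 do not measure independent stretches. Probes were compared only with one another, so binding of the H2-K1 probes to RNA of other class I genes was not tested. H2-D1 was not represented by a probe of its own name, and no value of another class I name is given for it.

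The PA array was the brightest of the 4 before normalization between arrays, with a 75th percentile of the processed intensity of 542 with PA and ADSC medium, 622 with PA, 497 with ADSC medium and 495 in control. When arrays were scaled to that percentile in place of quantile normalization, all 9 genes stayed above control with PA. However, H2-K1 (0.54) and Tapbp (0.50) came under 1.5-fold. The median of the 9 genes was 0.60, against -0.05 over all gene names under that scaling. B2m, at a level above 16 on every array, moved most in proportion, with a PA difference of 0.16 under that scaling against 0.37. Averaging both Tapbp probes also took its PA difference under 1.5-fold, to 0.57.

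PA was compared again on the pair of arrays that both had ADSC medium, to see the same contrast in the presence of the medium. All 9 genes were again higher with PA and ADSC medium than with ADSC medium alone, where 47.4% of 18467 gene names were. Their median difference was 0.48, against -0.02 over all gene names. Only Tap1 (0.77, or 1.71-fold) and Psmb8 (0.81, or 1.75-fold) were at least 1.5-fold higher, where 3.54% of gene names were. Tapbp (0.53), H2-K1 (0.49) and Psmb10 (0.48) followed, and B2m, Psme1, Tap2 and Psmb9 lay between 0.27 and 0.30. The pair of arrays with ADSC medium and the pair without share no array, so these 2 sets of PA differences rest on separate arrays.

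**Figure D2:**
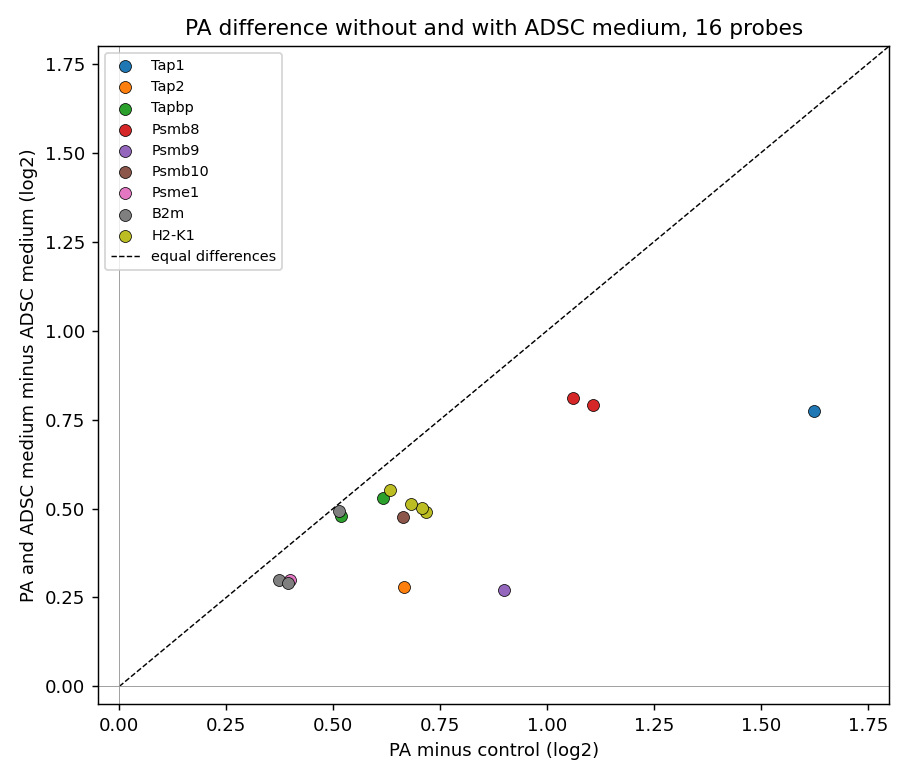
PA difference without ADSC medium (x axis, PA minus control, log2) against PA difference with it (y axis, PA and ADSC medium minus ADSC medium, log2), 1 point per probe and 1 colour per gene; the dashed line marks equal differences. All 16 points are above 0 on both axes and below the dashed line, with Tap1 at 1.62 and 0.77, Psmb9 at 0.90 and 0.27, and Tapbp nearest to equal among the genes above 1.5-fold.

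The PA difference was smaller with ADSC medium than without it for all 9 genes, where 52.1% of 17971 gene names with both differences showed the same direction. The median of this change was -0.23, against -0.01 over all gene names. It was at least 1.5-fold for 2 genes, where 3.32% of gene names were as much lower: Tap1 (-0.85) and Psmb9 (-0.63). Tap2 followed at -0.39, then Psmb8 at -0.25, H2-K1 at -0.23 and Psmb10 at -0.19. Psme1 (-0.10), Tapbp (-0.09) and B2m (-0.07) had the smallest values. No replicate gives an error for these values, and with the 75th percentile scaling the median was -0.14. The change takes in the PA array, so a high value on that array would make it negative. For genes with ADSC medium alone near control, it largely repeats the difference between PA and ADSC medium and PA.

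PA and ADSC medium together were set against PA alone to ask how the genes differed when medium was added to the fatty acid. This comparison uses the PA array again, as the PA against control comparison does, so a high value on that array would enter both with opposite sign. All 9 genes were lower with PA and ADSC medium than with PA, where 53.4% of 18741 gene names were, and the median difference was -0.25, against -0.02 over all gene names. Only Tap1 and Psmb9 were at least 1.5-fold lower, where 3.69% of gene names were. The authors' deposited table lists 920 of the 41174 probes as higher with PA than with PA and ADSC medium. Tap1 and Psmb9 are the only 2 of the 9 genes among them. That table describes these same arrays, so it is not separate support. Tap1 was 1.88-fold lower, rank 146 from the bottom of 18741 gene names, and Psmb9 was 1.64-fold lower, rank 357 from the bottom. The Tap1 difference was -0.91, and -0.77 with the normexp background correction. Tap2 was next, with a difference of -0.51. The remaining 6 genes lay between -0.31 (H2-K1) and -0.01 (Tapbp).

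How far PA and ADSC medium together stood above control, relative to PA alone, varied among the genes. Taking PA minus control as the whole, PA and ADSC medium minus control was 21.1% of it for Psmb9, 23.9% for Tap2, 35.3% for B2m and 44.1% for Tap1. It was 56.7% for H2-K1, 74.8% for Psmb10, 76.2% for Psmb8, 82.8% for Psme1 and 98.5% for Tapbp. The 3 immunoproteasome subunits therefore did not share a value: Psmb9 differed by -0.71 between PA with and without medium, Psmb8 by -0.25 and Psmb10 by -0.17. These percentages also take in the difference between ADSC medium alone and control. For B2m that difference was -0.17, and its PA difference was 0.30 with medium against 0.37 without. The other B2m probes gave 41.7% and 57.9%.

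Set against control, PA and ADSC medium left all 9 genes higher, where 46.5% of 18250 gene names were, with a median of 0.41 against -0.02 over all gene names. At least 1.5-fold higher were Tap1 (0.72), Tapbp (0.61) and Psmb8 (0.81), where 4.68% of gene names were. Tap1 (0.56 with the normexp background correction) and Tapbp (0.57 with the 75th percentile scaling) came under that fold under those settings. Psmb9 (0.19), Tap2 (0.16) and B2m (0.13) were nearest to control.

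ADSC medium alone was set against control to show the medium without the fatty acid. None of the 9 genes was 1.5-fold higher or lower, where 2.31% of 18197 gene names were higher and 1.29% lower by that fold. Their differences ran from -0.17 (B2m) to 0.08 (Tapbp), with a median of -0.06. All 3 B2m probes were lower with ADSC medium than in control, by -0.13 to -0.19, each more than 2 SDs of replicate spots. For Tap1, Tap2, Tapbp, Psmb8, Psmb9, Psmb10 and Psme1 the gap was within 2 SDs on every probe, and for H2-K1 on 2 of its 4 probes.

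Over the 16 probes the order of levels was therefore the same at the top, with PA first and PA and ADSC medium second. Control came above ADSC medium on 11 probes, and the last 2 places were exchanged on 5 probes, of Tapbp, Psmb8, Psmb10 and Psme1. The gap between PA and PA and ADSC medium was within 2 SDs of replicate spots for Tapbp (both probes) and Psme1, and larger for the other 13 probes.

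The rest of the proteasome gave a contrast for the inducible subunits. Psmb6, Psmb5 and Psmb7 are the standard catalytic subunits that Psmb9, Psmb8 and Psmb10 replace. Psmb5 had levels of 13.31 with PA and ADSC medium, 13.29 with PA, 13.31 with ADSC medium and 13.31 in control. Psmb6 had levels of 14.15 with PA and ADSC medium, 14.28 with PA, 14.26 with ADSC medium and 14.30 in control. Psmb7 had levels of 13.06 with PA and ADSC medium, 13.20 with PA, 13.07 with ADSC medium and 13.22 in control. None of the 3 was higher with PA than in control.

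**Figure D3:**
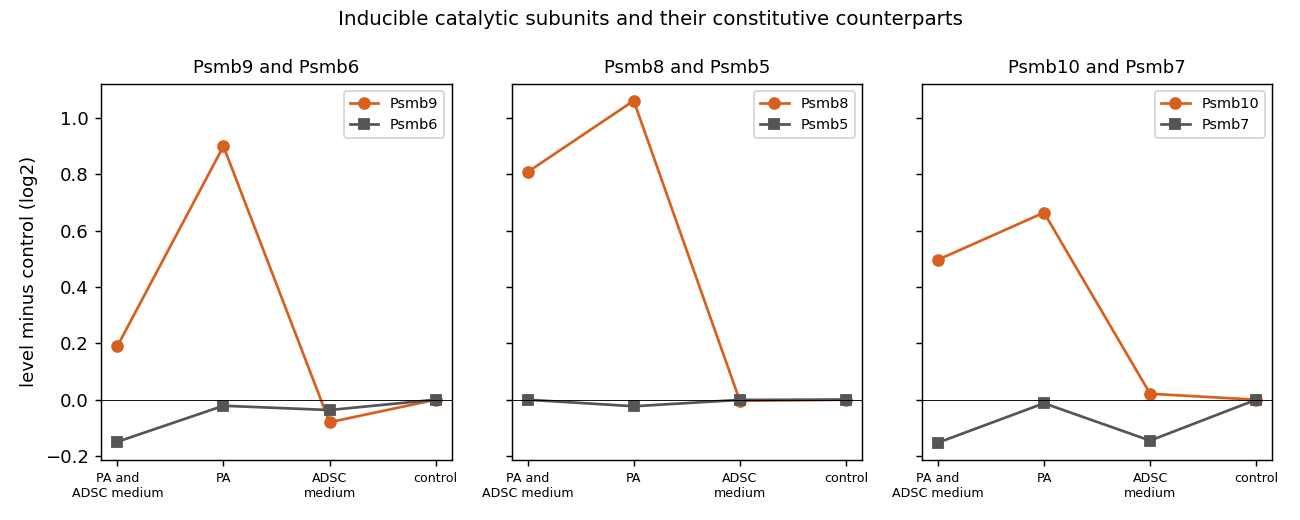
Level minus control level (log2) of each inducible catalytic subunit (orange circles) and the standard subunit it replaces (grey squares) on the 4 arrays. With PA the inducible subunits stand at 0.90 (Psmb9), 1.06 (Psmb8) and 0.66 (Psmb10) and their standard counterparts at -0.02, -0.02 and -0.01.

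Of 14 standard 20S core subunits none was 1.5-fold higher or lower in any of the 5 comparisons, in which 1.29% to 5.26% of gene names passed that fold in one direction, and their PA differences ran from -0.26 (Psmb1) to 0.06, with a median of -0.05. Of 18 subunits of the 19S cap, which feeds proteins into the core, none reached 1.5-fold either. Psmc3 (-0.36) and Psmd8 (0.27) had the largest PA differences among them. Of 9 activators and assembly factors none reached 1.5-fold in any comparison by its brightest probe, though a dim probe of Psme4 did between PA and ADSC medium and PA (0.72). Psme2 (0.54) and the assembly chaperone gene Psmg3 (0.42) came nearest with PA. Psme3, whose product forms a nuclear activator, was higher by 0.41 with PA and ADSC medium than with PA.

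Genes that trim or load peptides did not follow the 9 genes as a group. None of 11 reached 1.5-fold in any comparison by its brightest probe, where 1.29% to 5.26% of gene names passed it in one direction. Their median PA difference was -0.04. A dim probe of Lnpep passed that fold, at -0.67 between PA and control and 0.87 between PA and ADSC medium and PA. Erap1, the aminopeptidase that trims peptides inside the endoplasmic reticulum, had levels of 9.37 with PA and ADSC medium, 9.56 with PA, 9.12 with ADSC medium and 9.10 in control, a PA difference of 0.46. Npepps, a cytosolic aminopeptidase gene, had a PA difference of -0.43. Tapbpl encodes a tapasin-related peptide editor. It differed by 0.18 between PA and control and by -0.54 between PA and ADSC medium and PA, with the lowest of its 4 levels (8.82) on the array with both.

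Other class I and class I-like genes resembled H2-K1 more closely. Of 25 listed names 20 had a probe and 19 were compared. With PA 11 of the 19 were at least 1.5-fold higher than in control, where 2.92% of gene names were. As much lower was 1 of them, where 3.27% of gene names were, and the median of the 19 was 0.64. Some of their probes share runs of 20 or more bases, as that of H2-T23 does (28 bases with a probe of another gene). The 11 may therefore not all be separate measurements. H2-T24, a non-classical heavy chain gene, was the largest of them. It had levels of 6.45 with PA and ADSC medium, 6.44 with PA, 4.72 with ADSC medium and 4.48 in control, a difference of 1.97 between PA and control and of 1.73 between PA and ADSC medium and ADSC medium alone. H2-T22, whose product is a ligand of gamma-delta T cells, had a PA difference of 0.74, H2-Q4 0.70, and H2-T23 0.65. H2-M3, which presents formylated peptides, was ordered differently from the 9 genes. Its levels were 12.59 with PA and ADSC medium, 11.85 with PA, 11.49 with ADSC medium and 11.15 in control, so the array with both stood 0.74 above PA. The gene that was 1.5-fold lower with PA was Cd1d1, which presents lipids to natural killer T cells. It was named after its values were seen, and had levels of 7.94 with PA and ADSC medium, 7.66 with PA, 8.74 with ADSC medium and 8.28 in control.

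The transcription factors known to act on class I genes are given as 18 genes, all measured. With PA 4 were at least 1.5-fold higher than in control, where 2.92% of gene names were. None was as much lower, where 3.27% of gene names were, and the median of the 18 was 0.28. Stat2 and Irf9, which act in the response to type I interferon, had PA differences of 1.69 and 1.11. Relb, an NF-kB subunit gene, had 0.66 and Nlrc5, the class I transactivator, 0.60. Irf1, which is known to drive Tap1 and Psmb9, had levels of 11.97 with PA and ADSC medium, 12.21 with PA, 11.81 with ADSC medium and 11.66 in control, a PA difference of 0.55. Between PA and ADSC medium and PA, 5.26% of gene names were 1.5-fold higher and 3.69% lower. None of the 18 reached that fold by its brightest probe, while a dim probe of Rfx5 differed by at least -0.76. Irf8 differed by -0.44, Irf1 by -0.23, Nlrc5 by 0.01 and Irf9 by 0.00. The largest was Rfxank, which encodes a subunit of a complex that binds MHC promoters, at -0.52.

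Ifnb1, the gene of interferon beta, was well above background only on the 2 arrays with PA, with levels of 4.90 with PA and ADSC medium and 5.53 with PA. Its PA level was at least 3.10 above control on the log2 scale, and it was lower by -0.64 with PA and ADSC medium than with PA. Ifng, the gene of interferon gamma, was well above background on no array. Of 13 compared genes of the list with interferons, receptors and kinases, 3 were at least 1.5-fold higher with PA than in control. Among all gene names 2.92% were. Besides Ifnb1 these were Usp18 (2.44) and the interferon alpha gene Ifna2 (0.94), whose probe was dim at 3.81 with PA and 2.86 in control. Among 20 interferon-stimulated antiviral genes the PA level exceeded control by at least 2-fold for 19, where 1.09% of gene names did. Their median PA difference was 2.28. With PA and ADSC medium against PA their median was -0.26. None reached 1.5-fold by its brightest probe, where 5.26% of gene names were higher and 3.69% lower. The dimmer probes of Oasl2 (-0.78) and Ifi44 (-0.68) were more than 1.5-fold lower in this comparison, where their brightest probes gave -0.26 and -0.40.

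**Figure D4:**
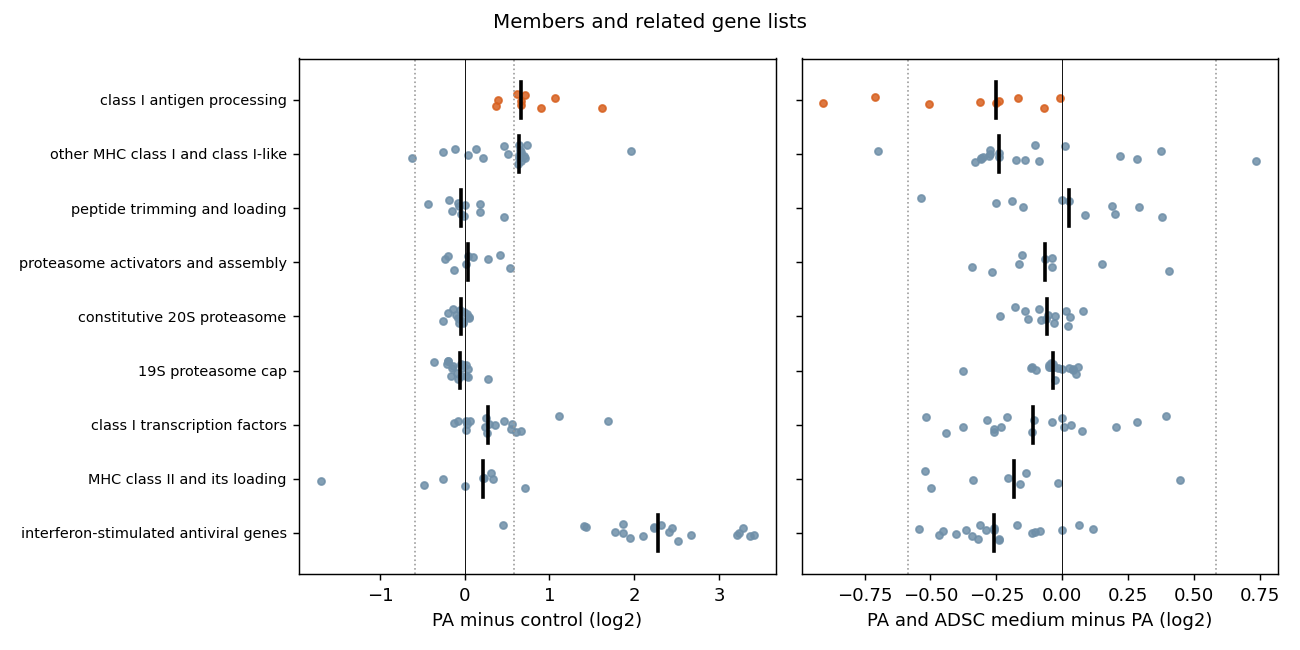
Differences of single genes (points, log2) in the class I antigen processing genes and 8 related gene lists, PA minus control on the left and PA and ADSC medium minus PA on the right; thick bars are list medians and dotted lines mark 1.5-fold. On the left the medians are 0.67 for the class I antigen processing genes, 0.64 for other class I genes, -0.05 for the constitutive 20S proteasome and 2.28 for the antiviral genes; on the right only Tap1 and Psmb9 of the 9 genes pass the lower dotted line.

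Genes whose 4 levels ran most like the median of the 9 genes were sought among 17346 gene names well above background on all arrays, by the root mean square distance of levels centred on each gene's own mean over the 4 arrays. The nearest were Gypc (0.020), Tdrd7 (0.021) and Relb (0.023), followed by 2 transcripts named only by an identifier and by H2-Q10, H2-K2 and H2-D4 (0.035 to 0.037). Since probes of class I genes may bind RNA of one another, H2-Q10, H2-K2 and H2-D4 may not be measured apart from H2-K1. Gypc, which encodes a red cell membrane glycoprotein, had levels of 10.93 with PA and ADSC medium, 11.22 with PA, 10.47 with ADSC medium and 10.48 in control. Among the 9 genes themselves H2-K1 lay nearest to the median (0.024) and Tap1 farthest from it (0.375).

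Psmb9, Tap1, Psmb8 and Tap2 are neighbours in that order within the class II region of chromosome 17 in the RefSeq gene table. Tap1 and Psmb9 point away from each other, and their RefSeq starts are 225 bases apart, so one stretch of DNA is upstream of both. These 2 genes were also the pair at least 1.5-fold lower with PA and ADSC medium than with PA, which is why the stretch is shown. It is chr17:34187331-34187555 on the plus strand of GRCm38.p6, from RefSeq, with matches to CCAAT, to GGGCGG on the other strand, and to TGACG in capitals.
Tap1 and Psmb9 shared stretch: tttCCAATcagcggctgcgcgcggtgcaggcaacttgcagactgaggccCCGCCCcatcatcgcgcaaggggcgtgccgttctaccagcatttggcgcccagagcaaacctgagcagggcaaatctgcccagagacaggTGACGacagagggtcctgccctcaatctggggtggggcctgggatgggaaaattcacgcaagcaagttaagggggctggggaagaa

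The 250 bases upstream of the RefSeq start were searched on both strands for 7 motifs in 9 of the 10 genes, Tap2 having no window. The motifs were the interferon-stimulated response element as GAAA repeated after a gap of 2 bases, a form as GAANNGAAA that is a base shorter, the gamma-activated site as TTCNNNGAA, the kB site, TGACG, the CCAAT box and GGGCGG. The response element was found upstream of B2m, and in 2.98% of all 32851 windows. GAANNGAAA was found upstream of H2-K1 and H2-D1 (6.31% of all windows). TTCNNNGAA was found upstream of Psmb8 (7.02% of all windows). A kB match was found upstream of B2m, H2-K1 and H2-D1 (7.25% of all windows). TGACG was in 5 of the 9 windows (17.8% of all), CCAAT in 6 (33.8% of all) and GGGCGG in 4 (32.7% of all). In these windows no match overlapped a match to another of the motifs. For H2-K1, with 2 windows in the RefSeq table, the more upstream start was used. A match describes letters in this window only.

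The windows of B2m, H2-K1 and Psmb8 are shown because they hold the interferon and kB matches, from RefSeq on GRCm38.p6, each read along its gene. The B2m window is chr2:122147437-122147686 on the plus strand, with capitals for the response element from -139 to -130 and for the kB match, counted from the base before the start as -1. The H2-K1 window is chr17:34000348-34000597 on the minus strand, with capitals for the overlapping kB matches and for GAANNGAAA on the other strand from -90 to -82. The Psmb8 window is chr17:34197945-34198194 on the plus strand, with capitals for TTCNNNGAA from -97 to -89.
B2m window: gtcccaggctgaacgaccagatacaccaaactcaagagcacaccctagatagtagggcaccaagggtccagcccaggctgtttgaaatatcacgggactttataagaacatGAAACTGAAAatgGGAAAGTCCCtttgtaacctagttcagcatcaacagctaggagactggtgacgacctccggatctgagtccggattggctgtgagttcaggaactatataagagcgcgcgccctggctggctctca
H2-K1 window: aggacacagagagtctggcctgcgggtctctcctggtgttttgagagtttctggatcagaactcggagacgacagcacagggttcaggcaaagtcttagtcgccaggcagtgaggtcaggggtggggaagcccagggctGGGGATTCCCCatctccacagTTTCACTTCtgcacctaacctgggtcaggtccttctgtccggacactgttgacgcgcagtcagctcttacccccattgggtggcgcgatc
Psmb8 window: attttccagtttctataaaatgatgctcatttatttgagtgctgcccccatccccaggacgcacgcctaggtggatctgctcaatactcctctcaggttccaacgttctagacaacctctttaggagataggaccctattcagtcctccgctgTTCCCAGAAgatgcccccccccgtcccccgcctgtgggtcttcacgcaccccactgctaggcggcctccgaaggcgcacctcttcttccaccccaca

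The H2-K1 window and that of H2-D1, which has no probe on the array, were identical at 166 of 190 aligned bases (87.4%), and both hold the same kB and GAANNGAAA matches. B2m holds a match to the response element. Tap1 and Psmb9 hold no match to the response element, GAANNGAAA, TTCNNNGAA or kB in these windows, and sites outside the windows were not searched. Whether any match bears on the PA differences was not tested.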

How the data were processed

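RNA of 4 cultures was measured on 4 one-colour Agilent arrays of design 014868, annotated on mm9 and read with Feature Extraction 12.1.1.1, per the file headers. Per the file headers, the deposited intensities are processed ones, with background already subtracted within each array. Flags for outlier, saturated and well-above-background spots came from the same files. The series' design notes name quantile normalization between arrays by the authors, and the submitters' processing notes name R 3.5.1.

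Here, control spots and outlier-flagged spots (82 to 104 per array) were dropped, intensities taken to log2, spots of a probe averaged, and arrays quantile-normalized in R 4.3.3 by limma 3.58.1 over 41146 probes with a value on every array. Symbols came from RefSeq by accession for 28680 probes, and the other 12466 kept the array's name. Each of 26793 names was represented by its probe of highest mean level, also in list counts. A probe was well above background where more than 50% of its spots were flagged so, and a gene was compared where this held on at least 1 of the 2 arrays. Where it held on only 1, the lowest level well above background on the other array set a bound, written "at least". Further steps used Python 3.11.15, numpy 2.4.6, pandas 2.3.3 and matplotlib 3.10.9, tested on simulated data.

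With 1 array per condition no test was run, and counts past 1.5-fold and 2-fold stand beside the share of all gene names. Text names all members, from each of 10 pathway lists up to 4 genes of largest PA difference and up to 2 of largest difference between PA and ADSC medium and PA, 9 further genes (Erap1, Tapbpl, Psme2, Nlrc5, Irf1, H2-T23, Psmb5, Psmb6 and Psmb7), and 8 genes of most similar pattern. Of the genes planned for these lists 1 is not reported here. The members and lists, with 5 marker lists, were chosen with earlier results of these data known. Alternatives were the 75th percentile scaling, normexp background correction with an offset of 50, the mean of detected probes, no filter on dim probes, and outlier spots kept. Probe sequences are those of the deposited files, and upstream windows are RefSeq's on GRCm38.p6.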

Additional observations from a re-analysis of the deposited data

How the results depend on the processing

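No direction of the 9 genes' median and no count of genes past 1.5-fold moved by more than 1.5 times under any of the 5 alternatives. With the 75th percentile scaling the median was 0.60 for PA against control (0.67 as reported), 0.41 for PA and ADSC medium against ADSC medium (0.48), 0.33 for PA and ADSC medium against control (0.41), and -0.14 for the change of the PA difference with medium (-0.23); the cause was not tested. Among single genes only differences near 0 changed sign: Tapbp between PA and ADSC medium and PA (0.07 with that scaling), and Psmb8 (0.00 with that scaling, 0.02 with the mean of detected probes) and Psmb10 (-0.02 with normexp) between ADSC medium and control. Counts over all gene names moved more. For PA against control, 531 were 1.5-fold higher and 596 lower as reported, 221 and 164 with normexp, 457 and 768 with the 75th percentile scaling, and 1585 and 1510 with no filter, so the background share depends on these choices. No paired analysis was possible because each condition has 1 array, and for the same reason none could be left out. The number of arrays limits the precision.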

Other observations

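Class II genes gave values apart from those of class I. Of 14 listed class II and loading genes 9 were compared between PA and control, where 2.92% of gene names were 1.5-fold higher and 3.27% lower. Only Cd74, the invariant chain, was at least 1.5-fold higher with PA than in control (0.72), with levels of 6.77 with PA and ADSC medium, 6.79 with PA, 5.40 with ADSC medium and 6.07 in control. H2-Ab1, a class II beta chain gene, had levels of 7.59 with PA and ADSC medium, 8.09 with PA, 7.52 with ADSC medium and 7.75 in control. H2-Aa, the alpha chain gene that pairs with it, was well above background on no array. Ifi30, which encodes a thiol reductase of the endosome, differed by -0.48 between PA and control, and H2-Ob, well above background in control alone, by at least -1.70.

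The ligands that T cells or natural killer cells read gave 9 compared genes. Of these, 2 were at least 1.5-fold higher with PA than in control, where 2.92% of gene names were. Cd274, the inhibitory ligand PD-L1, had levels of 8.42 with PA and ADSC medium, 8.92 with PA, 6.94 with ADSC medium and 7.04 in control, a PA difference of 1.88. Cd80, a co-stimulatory ligand, had levels of 6.97 with PA and ADSC medium, 6.60 with PA, 6.02 with ADSC medium and 5.37 in control. Cd274 was lower by -0.51 with PA and ADSC medium than with PA, whereas Cd80 was higher by 0.37.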
